A study of Mus musculus with 6 samples.

Results

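The genes described here mark the blood vessels of the brain: 31 genes of endothelial cells, of the blood-brain barrier and of the mural cells around them, out of 14250 rows in the count table. They were taken by symbol from a list of known vascular genes, and all 31 were present. They fall into 13 endothelial identity genes, 8 genes of barrier junctions and transport, 6 pericyte genes and 4 smooth muscle contractile genes. RNA came from the anterior cingulate cortex of C57BL/6 mice on postnatal day 45. On postnatal day 14 the animals had received an intraperitoneal injection of LPS (lipopolysaccharide, an endotoxin of the bacterial outer membrane, 50 µg per kg) or of pyrogen-free saline. Each group held 3 mice with 1 polyadenylated RNA library per mouse, and no genetic change is named for either group. All mice were anaesthetised with isoflurane and pentobarbital and perfused with cold buffer, which removes most blood, before the tissue was dissected by hand. Libraries held between 36168687 and 41270737 counts, and the members made up 0.159% to 0.188% of them.

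Endothelial cells line every vessel, and in the brain they are sealed to each other by tight junctions, take up little by vesicles and carry nutrients in and drugs out through dedicated transporters. Pericytes sit on the capillaries within a shared basement membrane and help to keep this barrier closed, while smooth muscle cells wrap arterioles and set their width. Circulating endotoxin acts on endothelium directly, and in the acute phase it can raise adhesion molecules and loosen junctions. The samples here were taken later in life, at an age past the acute response.

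The defining markers of each vessel cell type were detected in every library. Claudin-5 (Cldn5), the main claudin of brain endothelial junctions, stood at 24.1 to 34.0 FPKM (fragments per kilobase of transcript scaled to library size, a unit in which genes can be compared), the pericyte gene Rgs5 at 36.7 to 42.1 FPKM and smooth muscle actin (Acta2) at 16.7 to 27.4 FPKM. These are whole-tissue values, in which fewer cells of a type and less RNA per cell cannot be told apart.

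Promoter windows of up to 250 bases before the RefSeq start site (build GRCm38.p6) were found for 22 of the 31 members. They are shown for 5 genes because they differ in the sequence AGGAAG on either strand. It is a form of the site bound by ETS factors such as ERG and FLI1, which drive much of the endothelial programme. Flt1 and Eng hold it, Cldn5, Kdr and the pericyte gene Rgs5 do not. Other forms of the site were not searched, so a window without AGGAAG may still hold another form. Capitals mark AGGAAG on the printed strand or CTTCCT, its reverse complement, and all sequences run 5′ to 3′ on the gene's own strand. Flt1 lies on the minus strand at chr5:147726012-147726261, Eng on the plus strand at chr2:32646345-32646594, Cldn5 on the plus strand at chr16:18776597-18776846, Kdr on the minus strand at chr5:75978459-75978705 and Rgs5 on the plus strand at chr1:169655251-169655500.
Flt1: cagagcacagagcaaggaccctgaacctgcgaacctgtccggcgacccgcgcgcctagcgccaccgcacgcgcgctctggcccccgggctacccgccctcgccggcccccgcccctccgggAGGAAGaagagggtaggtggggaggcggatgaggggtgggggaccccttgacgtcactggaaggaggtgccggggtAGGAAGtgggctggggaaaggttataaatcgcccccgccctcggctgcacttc
Eng: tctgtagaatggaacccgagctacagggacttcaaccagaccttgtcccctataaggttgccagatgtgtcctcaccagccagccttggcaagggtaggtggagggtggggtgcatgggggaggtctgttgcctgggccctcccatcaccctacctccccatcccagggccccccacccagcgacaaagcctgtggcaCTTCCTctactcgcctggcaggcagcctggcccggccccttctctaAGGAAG
Cldn5: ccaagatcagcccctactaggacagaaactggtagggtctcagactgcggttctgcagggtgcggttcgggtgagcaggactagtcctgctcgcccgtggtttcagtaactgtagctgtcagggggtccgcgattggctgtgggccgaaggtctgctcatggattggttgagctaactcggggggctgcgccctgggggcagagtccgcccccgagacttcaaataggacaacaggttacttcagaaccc
Kdr: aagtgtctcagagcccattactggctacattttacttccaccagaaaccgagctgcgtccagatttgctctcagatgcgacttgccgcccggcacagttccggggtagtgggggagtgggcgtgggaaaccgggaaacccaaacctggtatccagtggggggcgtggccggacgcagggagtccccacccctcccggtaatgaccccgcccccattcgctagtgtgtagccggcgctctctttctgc
Rgs5: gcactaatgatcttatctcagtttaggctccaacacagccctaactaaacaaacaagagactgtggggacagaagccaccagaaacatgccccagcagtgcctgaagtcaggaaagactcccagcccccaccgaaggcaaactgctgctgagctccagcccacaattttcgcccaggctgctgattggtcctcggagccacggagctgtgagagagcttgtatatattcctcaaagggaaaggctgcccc

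Bases that lie in an exon of the gene itself were trimmed from the printed windows. In the trimmed windows AGGAAG or CTTCCT was present in 6 of 12 for endothelial identity genes and in 5 of 10 for barrier genes. Such a match was present in 0 of 4 for pericyte genes and in 0 of 2 for smooth muscle genes. Some genes have several start sites and so several windows. The barrier matches lay in every window of Abcg2 and in those of Slco1a4 and Abcb1a, so most came from 1 gene. The Abcb1a window (chr5:8566841-8567090) lies far before the GENCODE start of that gene at 8660077. With the full 250 bases the endothelial count was 7 of 12, the added window being one of Ly6c1, and the other counts did not change. Over all 32851 windows of the full 250 bases, 29.5% held a match. The motif was chosen after the counts had been seen, so the difference between these shares is no test of the motif. A match is a description of letters and says nothing of binding, and neither does its absence from this window.

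No member passed the test between LPS and saline mice. By edgeR over all genes tested, 0 members rose and 0 fell at an adjusted p under 0.05, where 0.288% of all rows passed. DESeq2 and limma-voom called 0 members as well, against 0.983% and 0.239% of all rows. At an unadjusted p under 0.05 there were 3 members, Mfsd2a and Anpep with higher and Kdr with lower values, which is 3 of 31 beside 7.17% of all rows. The groups did not overlap in 4 members, Esam and Mfsd2a with every LPS library above and Kdr and Egfl7 with every LPS library below, beside 13.7% of all rows. Both shares are near their background. Log2 changes, LPS relative to saline, ran from -0.26 to 0.47 with a median of 0.06, and 23 of 31 were positive. Over all rows the median was 0.00, and 50.4% were positive. At an unadjusted p under 0.05 there were 6 members higher and 1 lower without Saline 2. There were 3 higher and 2 lower without LPS 1, and 1 higher and 0 lower without LPS 2. Without Saline 1 there were 2 higher and 1 lower, and without Saline 3 or without LPS 3 there were 1 higher and 1 lower. The share of all rows in each of these fits is not given here, so the counts cannot be set beside a background. After adjustment 0 passed without any one library.

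**Figure D1:**
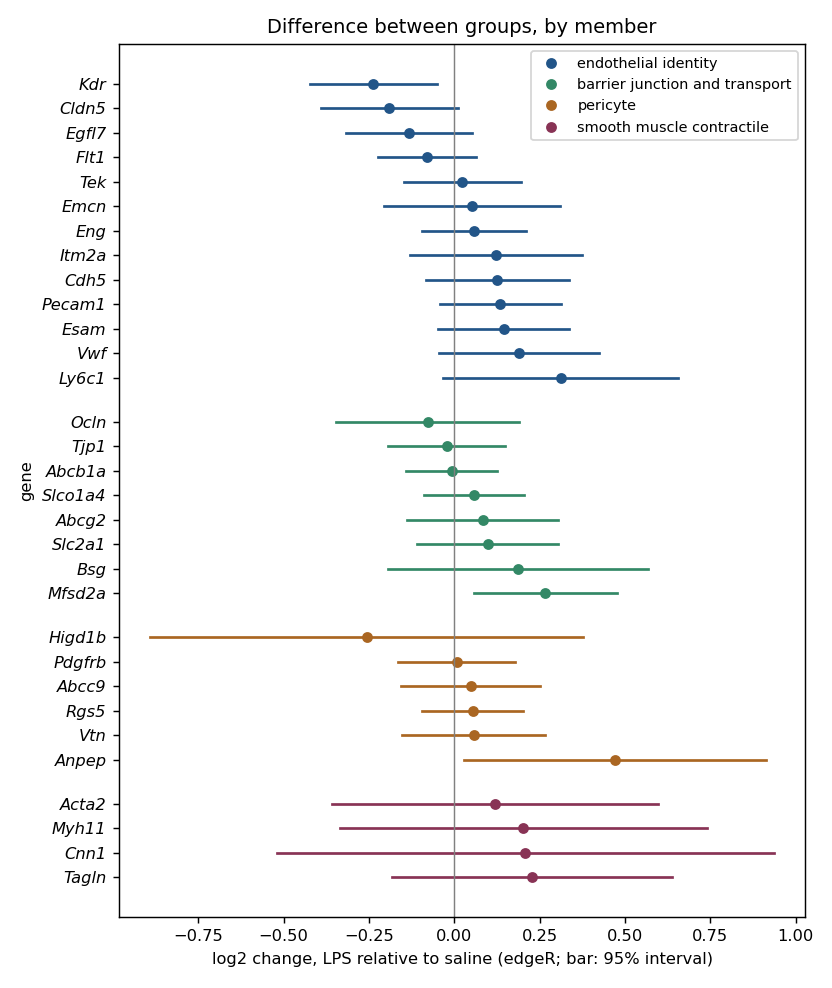
Log2 change of each member, LPS relative to saline, with its 95% interval from the edgeR fit, on a horizontal log2 axis and grouped by cell type. The intervals of Kdr, Mfsd2a and Anpep exclude 0 before adjustment over all genes, those of the other 28 members include it, and Cnn1 and Higd1b have the widest ones.

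Among the receptors of vascular growth factors, Kdr had lower values in LPS mice. Kdr (chr5:75932827-75978458, minus strand) codes for the main signalling receptor of VEGF-A on endothelium. It had 25.8, 29.6 and 27.6 CPM (counts scaled to library size) in Saline 1, 2 and 3 and 24.6, 22.0 and 23.8 CPM in LPS 1, 2 and 3. Every LPS library lay below every saline library, with Saline 1 and LPS 1 closest to each other. The log2 change was -0.24 (SE 0.0830, edgeR adjusted p = 0.548), with a 95% interval of -0.42 to -0.05. Flt1, which codes for the VEGF receptor that mostly acts as a decoy, ranged from 119 to 136 CPM in saline mice and from 119 to 126 CPM in LPS mice, with a log2 change of -0.08 (SE 0.0640). Tek, the angiopoietin receptor gene, had the most similar group means of the 3, 26.7 ± 0.530 and 27.2 ± 1.77 CPM (SD, n = 3 each). Eng, a co-receptor gene of the TGF-beta family that shares 61 exon bases with Fpgs on the opposite strand, had a log2 change of 0.06 (SE 0.0677).

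Endothelial junction and adhesion genes spread on both sides of 0. Cldn5 had 46.0, 43.3 and 51.6 CPM in saline and 45.1, 38.2 and 40.1 CPM in LPS libraries. LPS 1 lay inside the saline range and the other LPS libraries below it. Its log2 change was -0.19 with a 95% interval of -0.39 to 0.01 (edgeR adjusted p = 0.710). Pecam1, which codes for an adhesion molecule at endothelial contacts, had 38.9, 34.9 and 33.7 CPM in saline and 38.4, 41.5 and 38.0 CPM in LPS libraries, so Saline 1 lay among the LPS values. Esam, another contact molecule gene, had a narrow spread, with 14.1, 14.2 and 14.6 CPM in saline and 15.8, 15.1 and 16.5 CPM in LPS libraries. The groups of Esam did not overlap, and the log2 change was 0.14 (SE 0.0852, edgeR adjusted p = 0.779). Cdh5, the gene of VE-cadherin, which holds endothelial cells together, had a log2 change of 0.13 (SE 0.0935).

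The remaining endothelial identity genes did not pass either. Egfl7, which codes for a secreted angiogenic factor, had 22.1, 25.7 and 23.1 CPM in saline and 21.9, 21.3 and 21.5 CPM in LPS libraries. The LPS libraries were lower without overlap, but Saline 1 and LPS 1 almost met. Its log2 change was -0.13 (SE 0.0824, edgeR adjusted p = 0.786). Ly6c1, a surface protein gene used as a brain endothelial marker, had the largest positive value of this group, with a log2 difference of 0.31, SE 0.148 and an edgeR adjusted p of 0.729, and ranged from 19.8 to 29.3 CPM in saline mice and from 27.0 to 33.4 CPM in LPS mice. It has a close copy, Ly6c2, so reads of the pair can be shared. Vwf, the clotting factor gene of larger vessels and veins, ranged from 26.5 to 33.2 CPM in saline mice and from 32.2 to 38.2 CPM in LPS mice. Itm2a, a membrane protein gene, and Emcn, a sialomucin gene of capillaries and veins, had log2 changes of 0.12 (SE 0.110) and 0.05 (SE 0.115).

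Of the transport genes of the barrier, Mfsd2a had the smallest p. Mfsd2a (chr4:122946850-122961188, minus strand) codes for the transporter that brings docosahexaenoic acid, as a lysolipid, into the brain and keeps vesicle traffic through endothelium low. It had 24.4, 25.9 and 21.3 CPM in saline and 30.5, 28.7 and 26.9 CPM in LPS libraries, with every LPS library above every saline library. The log2 change was 0.27 with a 95% interval of 0.06 to 0.48 (SE 0.0930, edgeR adjusted p = 0.548). In DESeq2 its adjusted p was 0.474.

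Genes of drug and organic anion transport varied little between libraries in counts. Abcb1a, the gene of P-glycoprotein, which pumps drugs back to the blood, had 58.1, 55.7 and 58.7 CPM in saline and 57.2, 59.2 and 55.2 CPM in LPS libraries. Its log2 change was -0.01, with a 95% interval of -0.14 to 0.12. The groups overlapped, and the log2 SD within groups was 0.0460, at percentile 6.29 of all rows. Its close copy Abcb1b can share its reads. Slco1a4, an organic anion transporter gene of brain endothelium, had 51.9, 55.4 and 56.4 CPM in saline and 59.0, 53.6 and 57.8 CPM in LPS libraries, and the groups overlapped. Abcg2, the gene of the breast cancer resistance protein, ranged from 14.2 to 15.6 CPM in saline mice and from 14.4 to 17.3 CPM in LPS mice. The authors' FPKM of Abcg2 was 7.09 in LPS 3 against 3.03 to 4.31 in the other libraries, a step that the counts did not show.

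Genes of glucose and lactate transport and of the junction scaffold overlapped between the groups. Slc2a1, the gene of the glucose transporter GLUT1, had 140, 160 and 134 CPM in saline and 138, 169 and 156 CPM in LPS libraries. Bsg, which codes for basigin, a partner of lactate transporters that many cell types make, varied more, with 329, 317 and 415 CPM in saline and 331, 429 and 447 CPM in LPS libraries. LPS 1 matched the lower saline libraries, Saline 3 lay near the higher LPS libraries, and the log2 change was 0.19 (SE 0.154). Ocln, the occludin gene of tight junctions, and Tjp1, the ZO-1 gene that ties junctions to actin, had log2 changes of -0.08 (SE 0.120) and -0.02 (SE 0.0763).

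Of the 6 pericyte genes, 5 had log2 changes with intervals on both sides of 0. Pdgfrb, the receptor gene through which endothelium recruits pericytes, had 38.7, 40.5 and 44.5 CPM in saline and 39.7, 40.95 and 43.8 CPM in LPS libraries, a log2 change of 0.01 with a 95% interval of -0.16 to 0.18. Rgs5, a G protein regulator gene, had 175, 171 and 161 CPM in saline and 165, 174 and 189 CPM in LPS libraries. Vtn, the vitronectin gene, had 69.3, 79.4 and 78.0 CPM in saline and 73.6, 72.7 and 89.7 CPM in LPS libraries. In each of these 3 genes the groups overlapped. Abcc9, a subunit gene of a potassium channel, had a log2 change of 0.05 (SE 0.0907). Higd1b, a small mitochondrial protein gene, rested on 42 to 76 counts per library, and its log2 change of -0.26 had a 95% interval of -0.89 to 0.38.

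The sixth gene was Anpep. Anpep (chr7:79821803-79861059, minus strand) codes for aminopeptidase N (CD13), which pericytes carry but fibroblasts and myeloid cells make too. It had 5.13, 5.72 and 7.23 CPM in saline and 6.29, 8.70 and 10.1 CPM in LPS libraries. LPS 1 lay within the saline range, and LPS 2 and LPS 3 above it. The log2 change of 0.47, the largest of the 31, had a 95% interval of 0.03 to 0.91 and did not pass (SE 0.196, edgeR adjusted p = 0.690). Beside it, the 11 markers of meningeal and perivascular fibroblasts, all of them measured, had summed levels of 104, 176 and 205 CPM in Saline 1, 2 and 3 and 134, 167 and 233 CPM in LPS 1, 2 and 3. The lowest library, Saline 1, and the highest, LPS 3, were the same for Anpep and for this sum. Esam, Abcg2, Vtn and Tagln also had these lowest and highest libraries. Saline 1 was the lowest library in 41.9% of the members, beside 16.1% of all rows. The part of the fibroblast markers in the value of Anpep was not tested.

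The 4 contractile genes of smooth muscle did not separate by group and varied between mice. Acta2 had 33.5, 52.5 and 38.4 CPM in saline and 40.4, 42.5 and 52.4 CPM in LPS libraries. Tagln, the gene of the actin-binding protein SM22, had 11.8, 18.4 and 13.1 CPM in saline and 17.3, 14.5 and 19.0 CPM in LPS libraries. Myh11, the smooth muscle myosin gene, had 29.7, 48.7 and 29.4 CPM in saline and 41.1, 39.5 and 43.4 CPM in LPS libraries. In these genes Saline 1 and Saline 3 were the lowest libraries, while Saline 2 and LPS 3 were the highest. Cnn1, the calponin gene, had the same 2 lowest and 2 highest libraries at a low level, with 1.20, 2.92 and 1.68 CPM in saline and 2.43, 1.80 and 2.49 CPM in LPS libraries, from 46 to 117 counts. The median ratio of Saline 2 to Saline 1 was 1.603 over the 4 genes and 1.00 over all rows. Tagln shares 108 exon bases with Pcsk7 on the opposite strand, so part of its reads is uncertain.

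None of the 4 passed the test. Log2 changes were 0.12 for Acta2 (SE 0.193), 0.20 for Myh11 (SE 0.215), 0.21 for Cnn1 (SE 0.323) and 0.23 for Tagln (SE 0.177), with edgeR adjusted p of 0.822 to 0.926. The median over the 4 genes was 0.21. It was 0.03 without Saline 1, 0.0967 without Saline 3 and 0.46 without Saline 2, and in the last case Myh11 had a log2 change of 0.48 (edgeR adjusted p = 0.0674). The median SD within groups on the log2 scale was 0.285 for the smooth muscle genes, 0.115 for the pericyte genes, 0.115 for the barrier genes, 0.0912 for the endothelial identity genes and 0.119 over all rows.

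**Figure D2:**
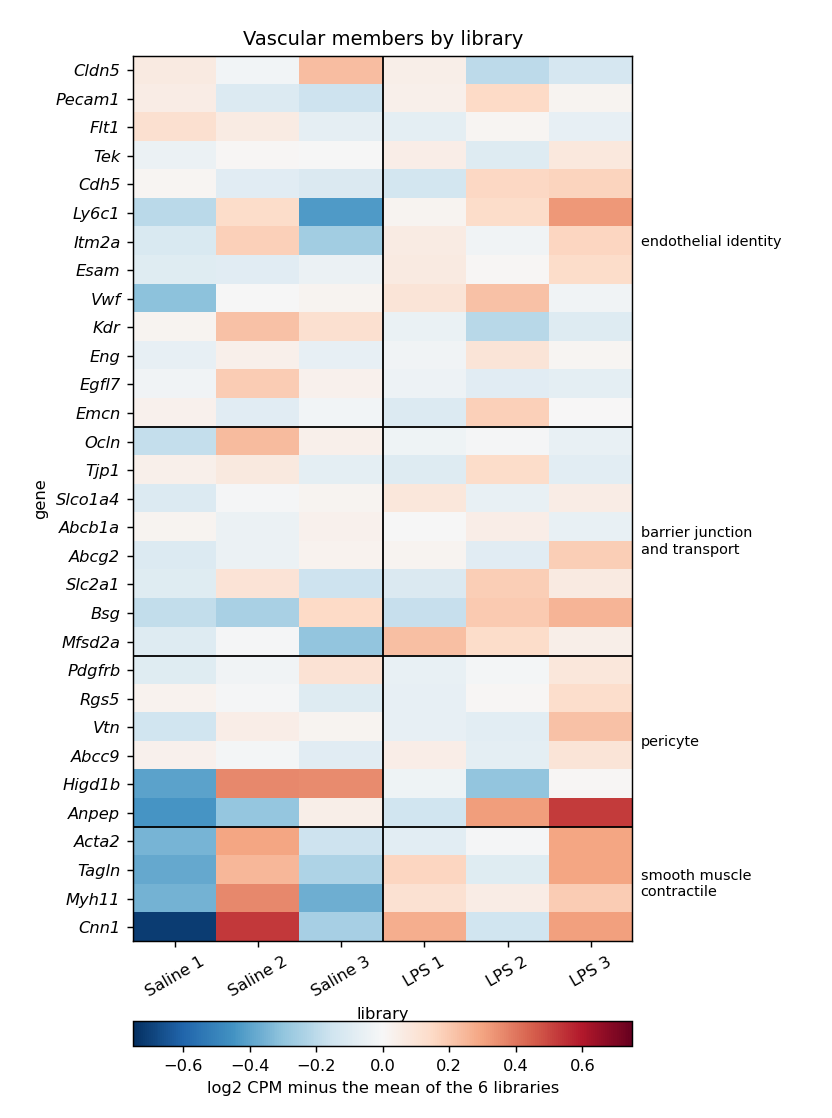
Log2 CPM of each member (rows, by cell type) in each library (columns), as the deviation from that gene's mean over the 6 libraries. The 4 smooth muscle genes are below their means in Saline 1 and Saline 3 and above them in Saline 2 and LPS 3. Ly6c1, Itm2a, Eng and Slc2a1 show the same signs in these libraries. Endothelial and barrier rows show no block that separates saline from LPS, and neither do the smooth muscle rows.

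Markers of other cells at the brain surface and around vessels also differed between libraries. Taken as the mean deviation from the 6-library mean on the log2 scale, the smooth muscle genes stood at -0.45, 0.36 and -0.25 in Saline 1, 2 and 3 and at 0.12, -0.05 and 0.27 in LPS 1, 2 and 3. The 11 fibroblast markers stood at -0.86, 0.05 and 0.16 in saline and at -0.17, 0.22 and 0.60 in LPS libraries. The 4 measured markers of perivascular macrophages, out of 6 fixed, stood at -1.17, 0.12 and 0.11 in saline and at 0.08, 0.26 and 0.60 in LPS libraries. Saline 1 was thus low in all 3 lists and LPS 3 high in all 3, while Saline 2 and Saline 3 were ordered differently in smooth muscle than in fibroblast markers. The 6 pericyte genes were also lowest in Saline 1 (-0.17) and highest in LPS 3 (0.18). The same held for 20 further mural genes (-0.19 and 0.13). The mean over the 13 endothelial identity genes stayed between -0.06 and 0.04 in the 6 libraries. Single genes of that list ranged further, the widest being Ly6c1, from -0.42 in Saline 3 to 0.33 in LPS 3. The part of these markers in the smooth muscle values was not tested. Of 6 blood cell markers only Ptprc was measured, at 2.96 to 4.14 CPM, and of 6 choroid plexus markers only Kl, at 2.46 to 4.44 CPM.

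**Figure D3:**
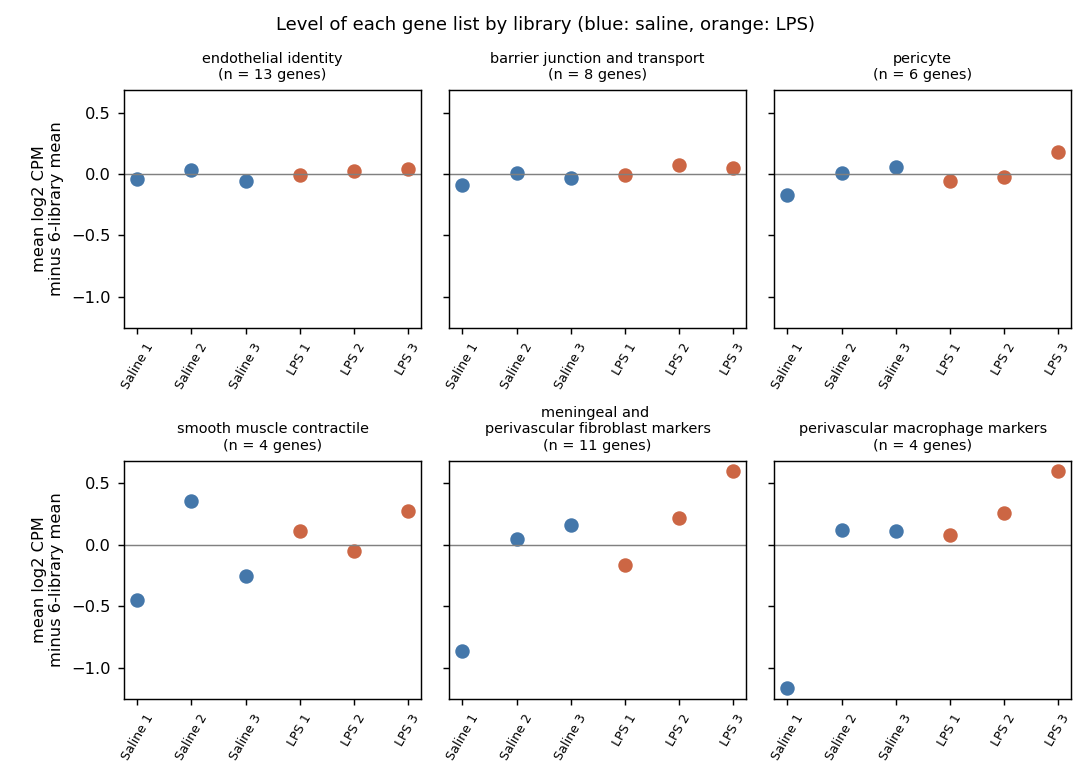
Mean log2 CPM deviation of each gene list (vertical axis) in each library (horizontal axis), with blue points for saline and orange points for LPS. The endothelial points lie between -0.06 and 0.04, the smooth muscle points between -0.45 and 0.36, and the fibroblast and macrophage points are lowest in Saline 1 and highest in LPS 3.

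Per length, basigin was by far the most abundant member and calponin the least. In saline mice Bsg had 256 ± 42.8 FPKM, followed by Slc2a1 with 45.5 ± 8.15, Vtn with 39.8 ± 3.85 and Rgs5 with 37.9 ± 1.11 FPKM (SD, n = 3 each). The last 3 did not differ beyond their spread. Cldn5 at 30.4 ± 3.11 FPKM and Ly6c1 at 29.0 ± 7.19 FPKM came next and also lay within each other's spread. At the lower end were Higd1b with 2.09 ± 0.607, Abcc9 with 1.92 ± 0.0279, Anpep with 1.61 ± 0.323 and Cnn1 with 0.909 ± 0.504 FPKM. In LPS mice Bsg had 290 ± 41.6 and Cnn1 1.40 ± 0.160 FPKM, again the highest and the lowest member. By counts the groups differed less in Cnn1, with 1.94 ± 0.887 CPM in saline and 2.24 ± 0.381 CPM in LPS mice. The VEGF receptors differed in level, with 17.8 ± 0.826 FPKM for Flt1 and 4.29 ± 0.387 FPKM for Kdr in saline mice.

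Further vascular genes outside the member list gave 0 calls in edgeR too. They covered 22 measured genes of growth factor and arterial-venous signalling, 18 of Wnt and barrier-inducing signals, 20 more of junctions and transport, 9 of leukocyte adhesion, 12 of the basement membrane and 20 more of mural cells. At an unadjusted p under 0.05, 3, 1, 2, 0, 5 and 0 of them had higher values in LPS mice, beside 3.63% of all rows. Lower values at that threshold were found for 2 growth factor and arterial-venous genes, Apln and Dll4, and for 0 genes of the other lists. DESeq2 called 4 of these genes, Lamc1, Sparc and Sox18 as higher and Apln as lower, beside 0.983% of all rows. With limma-voom 0 were called, beside 0.239% of all rows. The lists were chosen with earlier results of these data known.

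Among the further genes, 5 of the 12 basement membrane genes had an unadjusted p under 0.05, all with higher values in LPS mice. Lamc1, the gamma chain gene of vessel laminins (chr1:153218922-153332786, minus strand), had 36.6, 42.9 and 44.5 CPM in saline and 55.3, 57.6 and 56.1 CPM in LPS libraries. The LPS libraries lay above the saline libraries by more than the spread of either group. The log2 change was 0.45 (SE 0.0803), with an edgeR adjusted p of 0.0787 and a DESeq2 adjusted p of 0.000742. In the authors' FPKM it was -0.03 on the log2(FPKM + 1) scale, with overlapping groups. Sparc, which codes for a collagen-binding matrix protein, had 178, 176 and 189 CPM in saline and 208, 223 and 216 CPM in LPS libraries (log2 change 0.25, SE 0.0566, edgeR adjusted p = 0.207, DESeq2 adjusted p = 0.0302). The type IV collagen genes Col4a1 and Col4a2, neighbours that overlap by 22 exon bases, had log2 changes of 0.28 (SE 0.105) and 0.21 (SE 0.0618), and Nid1, the nidogen gene that links laminin to collagen, 0.40 (SE 0.134). In 4 of the 12 genes every LPS library lay above every saline library, beside 6.84% of all rows, and the median log2 change of the 12 was 0.19. That median was 0.12 without Saline 1 and 0.17 to 0.22 without any other single library. Summed FPKM of the 12 genes was 117 to 128 in saline and 143 to 145 in LPS libraries. Sparc made up most of that sum and of its difference, with 77.5 ± 4.43 FPKM in saline and 91.8 ± 1.23 FPKM in LPS mice (SD, n = 3 each). The genes at an unadjusted p under 0.05 numbered 3 without LPS 2 and 7 without Saline 2. The share of all rows in those 2 fits is not given here, so these counts have no background beside them. Astrocytes and fibroblasts make several of these proteins as well. The 11 fibroblast markers had a median log2 change of 0.45, which was 0.13 without Saline 1, with 10 of 11 positive, although their sums overlapped between the groups. The 7 astrocyte markers had a median log2 change of 0.05, and their summed level ran from 2237 to 4773 CPM in saline mice and from 2154 to 5247 CPM in LPS mice. Such a sum is weighted to the most abundant genes. The mean log2 deviation, in which each gene counts equally, spread less, from -0.23 to 0.15 in saline and from -0.12 to 0.23 in LPS mice. The part of either cell type in the basement membrane values was not tested.

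Among transcription factors of endothelium, the SOXF genes had positive values. Sox18 had 13.99, 12.8 and 13.6 CPM in saline and 18.5, 19.8 and 18.1 CPM in LPS libraries, without overlap. The log2 change was 0.48 (SE 0.0877), with an edgeR adjusted p of 0.0809 and a DESeq2 adjusted p of 0.00296. Leaving out any one library gave edgeR adjusted p values of 0.156 to 0.246 for Sox18. Sox7 and Sox17, the other members of that subfamily, had log2 changes of 0.42 (SE 0.204) and 0.44 (SE 0.221), with edgeR adjusted p of 0.729 and 0.740. Without Saline 2 the value of Sox17 was 0.24 and without Saline 1 it was 0.72, while that of Sox7 was 0.26 without LPS 2. Saline 1 overlapped the LPS libraries in Sox17, at 9.72 CPM against 9.37 to 10.1 CPM. The Wnt ligand and receptor genes that induce the barrier had overlapping groups and log2 changes of 0.04 for Wnt7a (SE 0.128), 0.05 for Wnt7b (SE 0.0813) and -0.06 for Fzd4 (SE 0.0927).

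Growth factor signals had values in both directions, and 0 passed in edgeR. Apln, the gene of the peptide apelin, which sprouting endothelium secretes, had 42.1, 43.3 and 27.1 CPM in saline and 23.3, 24.3 and 24.9 CPM in LPS libraries. Saline 3 lay close to the LPS libraries and the other saline libraries far above. The log2 change was -0.63 (SE 0.177), with an edgeR adjusted p of 0.465 and a DESeq2 adjusted p of 0.00902. Without Saline 3 edgeR called Apln lower, with a log2 change of -0.82 (adjusted p = 0.00280). Pdgfb, the ligand gene for the receptor that Pdgfrb encodes, had 42.3, 38.8 and 36.5 CPM in saline and 44.3, 48.1 and 45.6 CPM in LPS libraries, and a log2 difference of 0.23, SE 0.0752, with an edgeR adjusted p of 0.508. Angpt1, the activating ligand gene for the receptor that Tek encodes, had a log2 difference of 0.35, SE 0.133, with an edgeR adjusted p of 0.604. The arterial genes Notch4, a receptor, and Dll4, a ligand of Notch, had values of 0.28 on the log2 scale (SE 0.106) and -0.42 on the log2 scale (SE 0.180), with edgeR adjusted p of 0.604 and 0.696. Vegfa, the ligand gene for the receptors that Kdr and Flt1 encode, ranged from 57.9 to 60.9 CPM in saline mice and from 61.7 to 72.8 CPM in LPS mice, without overlap, and had an edgeR adjusted p of 0.755.

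**Figure D4:**
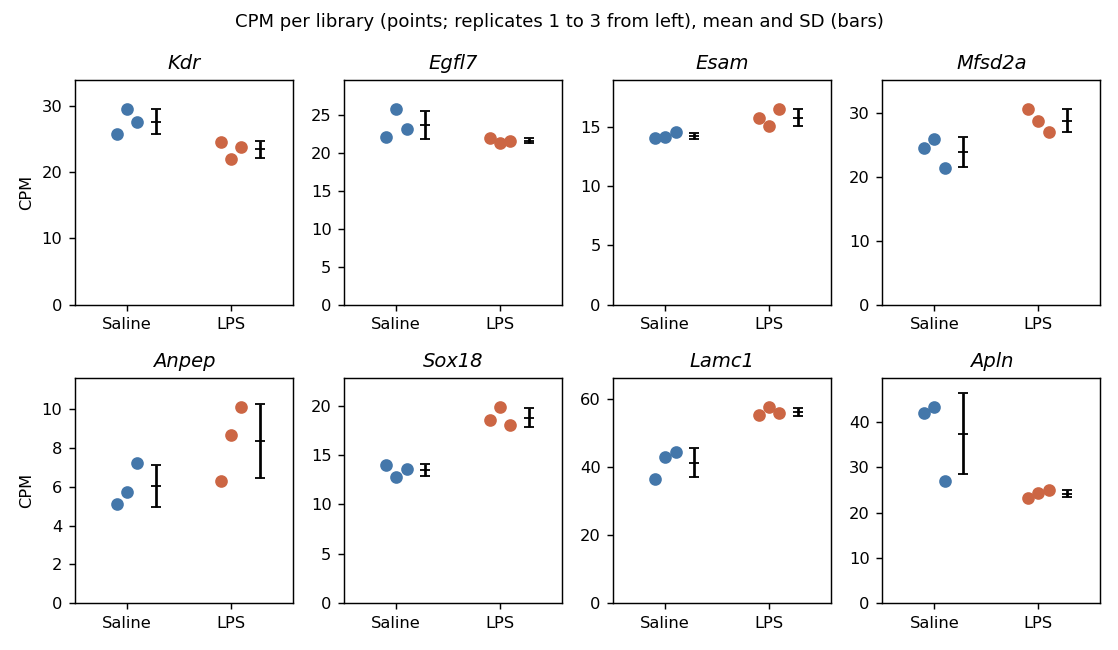
CPM per library (points, vertical axes from 0) with the mean and SD of each group (bars, n = 3) for 5 members and 3 further vascular genes. The groups do not overlap for Kdr, Egfl7, Esam, Mfsd2a, Sox18, Lamc1 and Apln, they overlap for Anpep, and edgeR called none of the 8 over all genes.

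Genes of leukocyte adhesion and activation, through which endothelium catches blood cells, numbered 0 at an unadjusted p under 0.05 by edgeR among the 9 measured of 12, and 0 were called by DESeq2 or limma-voom. The smallest p-values belonged to Thbd, the thrombomodulin gene, with 0.19 on the log2 scale (SE 0.0996), Ackr1, a chemokine-binding receptor gene of venules, with 0.21 on the log2 scale (SE 0.109), and Cd34, a sialomucin gene, with 0.09 on the log2 scale (SE 0.0593). Ackr1 shares 361 of its 1405 exon bases with Cadm3 on the same strand, so part of its reads is uncertain. The edgeR adjusted p was 0.756 for Thbd and Ackr1 and 0.801 for Cd34. Vcam1 and Icam1, the adhesion molecules that inflamed endothelium displays, had values of 0.02 on the log2 scale (SE 0.0872) and -0.06 on the log2 scale (SE 0.208), and the groups overlapped in both.

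In the further junction and transport genes, Tfrc, the transferrin receptor gene that carries iron across the barrier, had a value of 0.17 on the log2 scale (SE 0.0716), Slc22a8, an organic anion transporter gene, 0.24 on the log2 scale (SE 0.104) and Slc38a5, an amino acid transporter gene, 0.36 on the log2 scale (SE 0.170), with edgeR adjusted p of 0.696, 0.696 and 0.711. The value of Slc38a5 was 0.15 without LPS 2, which at 9.86 CPM stood above the 6.82 and 6.52 CPM of LPS 1 and LPS 3. Plvap, the diaphragm protein gene of leaky vessels, had 9.80, 8.29 and 9.25 CPM in saline and 7.94, 6.65 and 9.31 CPM in LPS libraries, with overlap and a value of -0.19 on the log2 scale (SE 0.142). In the further mural genes, Mylk, the kinase gene of myosin light chain, had a value of 0.24 on the log2 scale (SE 0.115), Ednra, the endothelin receptor gene, 0.19 on the log2 scale (SE 0.0972) and Tpm2, a tropomyosin gene, 0.32 on the log2 scale (SE 0.173), with edgeR adjusted p of 0.711, 0.7504 and 0.759. The 20 further mural genes had a median log2 change of 0.08, beside 0.00 over all rows, and 16 of them were positive, beside 50.4% of all rows. Saline 1 was the lowest library in 60% of them, beside 16.1% of all rows, and without Saline 1 the median was 0.03.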

How the data were processed

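The authors deposited raw read counts per gene and library, whole numbers in 14250 rows, and FPKM values of their own. The submitters' processing notes name TopHat2 2.1, build GRCm38 and DESeq 1.10.1, without their roles. For the counting program, annotation, any filter and strand handling the description is: not given in the sources used here. All 14250 rows were tested in R 4.3.3 with edgeR 4.0.16 (quasi-likelihood test, robust, TMM factors, treatment as the only term). The edgeR filter on low counts removed 0 rows. Two-sided p-values were adjusted over all rows (Benjamini-Hochberg, threshold 0.05), and intervals are 95%. CPM was computed here with TMM factors. Deviations used log2 CPM with a prior count of 2. For rows averaging 0.5 FPKM or more, log2(FPKM + 1) was tested with limma 3.58.1. The alternatives were DESeq2 1.42.0, limma-voom, other scaling factors, filters and thresholds, a replicate block and leaving out each library. The edgeR step was tested on simulated data.

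Gene positions come from GENCODE M21, found for all 31 members. Members, gene lists and the promoter motif were chosen with earlier results of these data known, the motif after the counts had been seen. Every member is named. Values by library go to members with an unadjusted p under 0.05 or groups that do not overlap, to the extremes by FPKM and to defining genes, and up to 3 further genes per other list were named by p. Nid1, Col4a1, Notch4, Dll4, Wnt7a, Wnt7b, Fzd4, Vegfa, Vcam1, Icam1 and Plvap were chosen after their values were seen. No 2 libraries were near duplicates (chi-square over its degrees of freedom 32.1 or more for each pair). P-values measure the spread between single mice, whose litter and order of collection were not used here.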

Additional observations from a re-analysis of the deposited data

How the results depend on the processing

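The count of members called was 0 higher and 0 lower with every alternative tried: RLE or upper-quartile factors, no filter (which removed no row, so tests nothing), a minimum mean of 50 counts, DESeq2, limma-voom, limma on FPKM, edgeR without the robust option, a threshold of 0.1 and leaving out each library. Of 465 member values under these alternatives, 0 passed the threshold, 17 had the opposite sign, and 22 of 31 members never changed sign. Over all rows, genes higher numbered 14 in the main test, 60 with DESeq2, 8 with FPKM and 23 at a threshold of 0.1, and genes lower 27 and, with DESeq2, 80. The cause was not tested, apart from the threshold. Leaving out 1 library gave 14 to 20 genes higher and 22 to 35 lower. It gave median log2 changes of 0.0419 to 0.115 for endothelial identity genes, 0.03 to 0.08 for barrier genes, -0.02 to 0.08 for pericyte genes and 0.03 to 0.46 for smooth muscle genes. Replicate numbers are shared by the groups, but deviations of same-numbered libraries correlated across genes at only -0.0266, 0.0252 and 0.0421, so the numbers were not taken to pair the libraries, and not every library correlated best with its own number. With the replicate number as a block, 10 genes were higher and 21 lower, and 0 members passed. With 3 mice per group, intervals were wide for some genes: that of Ly6c1 ran from -0.03 to 0.66 on the log2 scale.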
